A study of Mus musculus with 27 samples.

Results

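The comparison set CD8+ T cells without surface PD-1 and KLRG1 from treated mice against the same gate from control mice. Its members were the 5 libraries titled Tri and the 4 titled Iso in the PD1-KLRG1- gate, 9 of the 27 libraries of the series, matched to columns of the count table through the sample descriptions. All were bulk RNA-seq libraries of cells from MC38 tumours, a mouse colon adenocarcinoma line. Tumours were digested, and a viability dye with antibodies to CD3, CD8, CD45, KLRG1 and PD-1 served to sort live cells. Iso denotes the isotype control, and Tri the combined treatment abbreviated as TCT in the series text. Its agents, doses and timing, and the mouse strain and age, are missing from the labels used here. That each library is a separate mouse is not stated in the labels either, so p-values measure only the spread between libraries. For single genes the main fit estimated that spread over all 27 libraries, not the 9 alone.

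Killing by CD8+ T cells runs through granules that hold perforin and granzymes, and through the ligand of the death receptor Fas. PD-1 marks T cells with recent or lasting antigen contact and KLRG1 marks late effector cells, so a cell lacking both can be naive, early activated, memory-like or a bystander. As CD8+ T cells become effectors they are known to gain receptors shared with NK cells and chemokine receptors of inflamed tissue, and to lose genes of lymph node homing and of the stem-like state.

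The results turn first on 4 genes that rose together: the granule protease gene Gzmb, Klrk1, which encodes the activating receptor NKG2D, the granzyme B inhibitor gene Serpinb9 and the chemokine receptor gene Cxcr6. The 250 bases before each RefSeq start (GRCm38.p6) are shown so that these promoters can be compared. Capitals mark matches on either strand to the Runx motif TGTGGT, which reads ACCACA on the other strand, and to the AP-1 motif TGANTCA.
Gzmb (chr14:56262335-56262584, minus strand): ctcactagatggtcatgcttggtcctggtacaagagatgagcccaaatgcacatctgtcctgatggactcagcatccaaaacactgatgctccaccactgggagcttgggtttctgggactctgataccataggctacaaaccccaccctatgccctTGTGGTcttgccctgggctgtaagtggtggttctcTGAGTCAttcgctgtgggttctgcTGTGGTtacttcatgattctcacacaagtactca
Klrk1 (chr6:129623865-129624114, minus strand): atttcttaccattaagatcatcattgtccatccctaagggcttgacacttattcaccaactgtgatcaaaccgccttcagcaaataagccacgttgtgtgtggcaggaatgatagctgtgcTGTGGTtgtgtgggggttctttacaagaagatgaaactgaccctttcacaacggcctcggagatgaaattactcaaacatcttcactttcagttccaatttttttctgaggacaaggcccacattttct
Serpinb9 (chr13:33004291-33004540, plus strand): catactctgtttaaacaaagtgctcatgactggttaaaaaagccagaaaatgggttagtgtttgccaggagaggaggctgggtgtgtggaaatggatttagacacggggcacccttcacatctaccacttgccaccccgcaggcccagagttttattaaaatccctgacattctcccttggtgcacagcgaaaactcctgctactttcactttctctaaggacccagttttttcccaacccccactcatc
Cxcr6 (chr9:123806227-123806476, plus strand): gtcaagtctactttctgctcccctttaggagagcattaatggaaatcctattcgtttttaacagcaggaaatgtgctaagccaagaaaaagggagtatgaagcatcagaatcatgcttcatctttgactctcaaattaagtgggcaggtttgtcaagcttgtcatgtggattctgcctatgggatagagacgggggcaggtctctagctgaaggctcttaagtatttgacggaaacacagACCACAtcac
Gzmb held 2 Runx matches and 1 AP-1 match, Klrk1 and Cxcr6 held 1 Runx match each, and Serpinb9 held neither motif. These are matches of letters, not measured binding. The Serpinb9 window lies inside the gene as located below, past its first annotated base, so sequence before that base was not searched.

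Across the 14059 genes that passed the filter on low counts, 37 were called higher (0.263% of genes tested) and 76 lower (0.541%) in Tri than in Iso PD1-KLRG1- cells at an adjusted p under 0.05, 113 in all (0.804%). The higher genes had log2 fold changes from 0.61 to 8.68 with a median of 1.56. The 5 Tri libraries lay above all 4 Iso libraries in 33 of the 37, as they did in 2.41% of all genes (in 6.74% the groups were apart in either direction). The 37 were called on these same libraries, so their separation is not independent of the calls and adds no support to them. The median of all genes was -0.09, and 45.3% lay above 0. The count of higher genes was 15 without Iso replicate 2, 18 without Iso replicate 3, 21 without Tri replicate 2 and 24 without Tri replicate 4. The count of lower genes was 13, 36, 28 and 36 without these same libraries, and 44 and 45 without Tri replicates 1 and 3. Library totals ran from 11594027 to 26284630 counts. Tri replicate 5 stood apart, with a median correlation of 0.838 to its own group (0.897 to 0.937 in the other 8 libraries) and 10608 genes detected (12695 to 15288), and without it 36 genes were called higher and 71 lower.

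**Figure D1:**
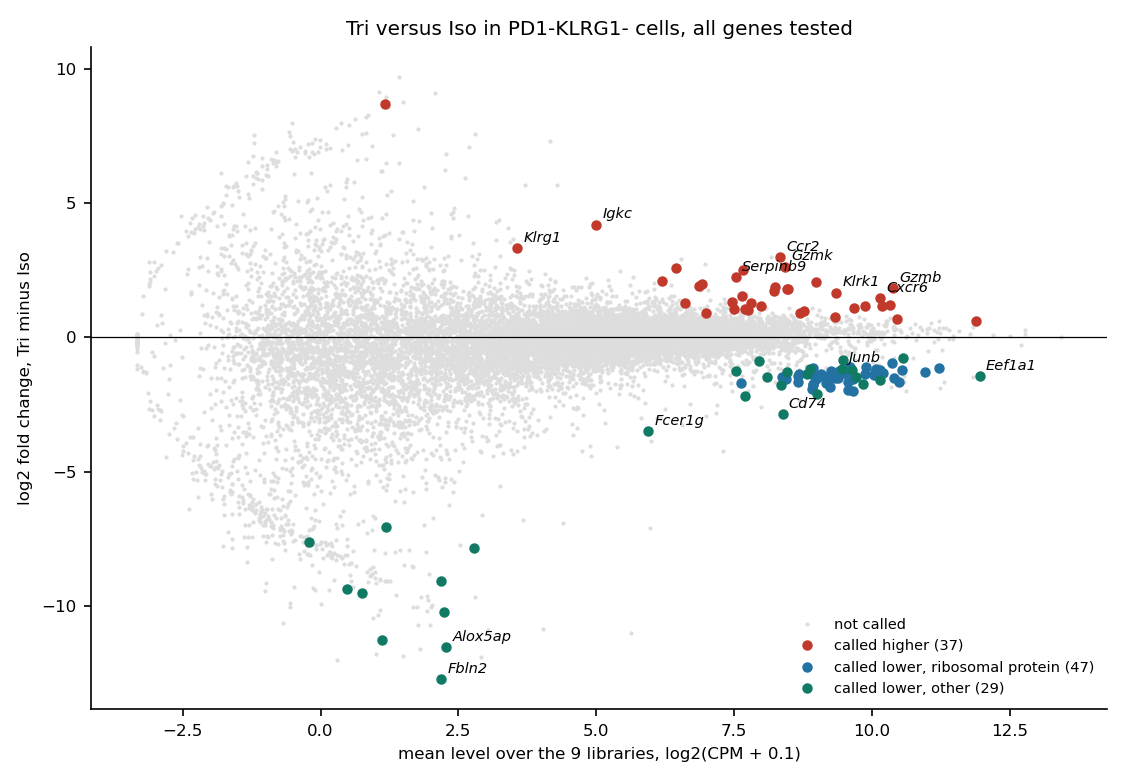
Every gene tested, by its mean level over the 9 libraries on a log2 axis (CPM plus 0.1) and its log2 fold change, Tri minus Iso. Colours mark the 37 genes called higher, 47 ribosomal protein genes called lower and the other 29 called lower. The ribosomal genes form a tight, highly expressed group below 0, and the higher genes spread over a wide range of levels.

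Genes of the sort gave a first check. Ptprc (CD45) was at 1526, 1406, 1549 and 2316 CPM in Iso replicates 1 to 4 (CPM is the count scaled to a common library total after TMM scaling) and at 2517, 2607, 2163, 2915 and 2433 CPM in Tri replicates 1 to 5 (log2 fold change 0.55 ± 0.15, adjusted p = 0.0918). Here and below the value in parentheses is the log2 fold change, Tri minus Iso, with its SE after the ± sign, and values per library follow the order of the replicate numbers. Cd8a (0.33, adjusted p = 0.319) and Cd3e (0.27, adjusted p = 0.888) were abundant in every library and not called. Pdcd1, the PD-1 gene, was at 57.3 ± 20.9 CPM (SD, n = 4) in Iso and 119 ± 32.4 CPM (n = 5) in Tri, with overlapping libraries (adjusted p = 1). Klrg1 transcripts rose inside the KLRG1- gate. They were at 2.49, 0.196, 0 and 4.40 CPM in Iso and at 40.0, 20.5, 8.61, 10.4 and 18.7 CPM in Tri (3.33 ± 0.78, adjusted p = 0.0359). No Tri library overlapped with Iso, and all stayed far below the 254 ± 70.8 CPM of the Tri PD1-KLRG1+ libraries. The call held in 2 of 9 refits that left out 1 library each (adjusted p up to 0.163 without Iso replicate 2).

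Gzmb, Gzmk and Fasl, genes of the killing machinery, rose. Gzmb (chr14:56258838-56262260, minus strand, GRCm38) was at 563, 546, 567 and 523 CPM in the Iso libraries and at 2146, 2285, 1955, 1556 and 1857 CPM in the Tri libraries (1.84 ± 0.20, adjusted p = 3.32e-06). The Iso libraries were nearly level, and the lowest Tri library lay far above them. Gzmk, which encodes granzyme K, was at 96.8, 103, 116 and 56.4 CPM in Iso and at 793, 636, 537, 463 and 291 CPM in Tri (2.63 ± 0.33, adjusted p = 4.37e-05). Fasl, the gene of the Fas ligand, was at 169.7, 67.9, 182 and 173 CPM in Iso and at 638, 555, 551, 525 and 308 CPM in Tri (1.80 ± 0.25, adjusted p = 0.000208). In both genes Tri replicate 5 was the lowest Tri library and still lay above every Iso library.

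Of 17 granule and death-ligand genes tested, 3 were called higher and 1 lower, and 11 lay above 0 (median 0.27). The member called lower was Gzme, granzyme E, with 2.93 and 3.94 CPM in Iso replicates 2 and 3 and no count in the other 7 libraries, at least 29.6-fold lower in Tri (adjusted p = 0.0266, called in 3 of 9 refits without 1 library, up to 0.0857 without Iso replicate 2). Such bounds set 3 counts over the group at 0 against the level of the other group. Granzyme genes resemble one another, and how shared reads were counted is not stated.

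Members not called, named after their values were seen, were Gzma, Prf1 and Nkg7. Gzma (granzyme A) was at 71.6 ± 25.2 CPM in Iso and 461 ± 124 CPM in Tri, without overlap (adjusted p = 0.0642). Prf1 (perforin) was at 102 ± 37.5 and 215 ± 42.5 CPM, also without overlap (adjusted p = 0.0589). Nkg7, a granule membrane protein, was at 3052 ± 742 and 4425 ± 1099 CPM with overlap (adjusted p = 0.0557). In a fit without the 4 Iso PD1-KLRG1+ libraries, whose spread otherwise enters the estimate shared by all groups, these 3 genes were called (adjusted p = 0.0293, 0.0175 and 0.0312), beside 0.971% of 14008 genes called higher. In a fit of the 9 libraries alone Gzma and Nkg7 were called (0.000119 and 0.0367) and Prf1 was not (0.0829). The summed level of the list was 6659, 6476, 7279 and 5208 CPM in Iso, 6406 ± 869 on average (SD, n = 4), and 10754 ± 2105 CPM in Tri (n = 5), with no overlap (2-sided exact permutation p = 0.0238, 0.0476 after Benjamini-Hochberg adjustment over 8 library measures). With 8 libraries the adjusted value missed 0.05 in 8 of 9 tests, all but that without Tri replicate 2. Fewer libraries raise the smallest p the test allows. The groups stayed without overlap whichever library was left out, so these misses do not mark overlap.

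Serpinb9 (chr13:33003250-33017957, plus strand) encodes the protein that shields a cytotoxic cell from its own granzyme B. It was at 48.8, 60.3, 46.6 and 81.7 CPM in the Iso libraries and at 286, 249, 264, 268 and 365 CPM in the Tri libraries (2.25 ± 0.23, adjusted p = 3.25e-06). The groups were far apart, and Tri replicate 5 was the highest library. All 7 intracellular serpins tested lay above 0 (median 1.29), and Serpinb9 was the 1 called. Its paralogue Serpinb6b was at 34.7 ± 14.5 and 92.0 ± 26.1 CPM without overlap (adjusted p = 0.0623, 0.00437 without the Iso PD1-KLRG1+ libraries and 0.0502 in the 9 libraries alone). Of 12 genes of granule transport and release none was called, and their median was 0.10. The smallest p among them belonged to Stx11, needed for granule fusion (1.30 ± 0.41, adjusted p = 0.178).

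**Figure D2:**
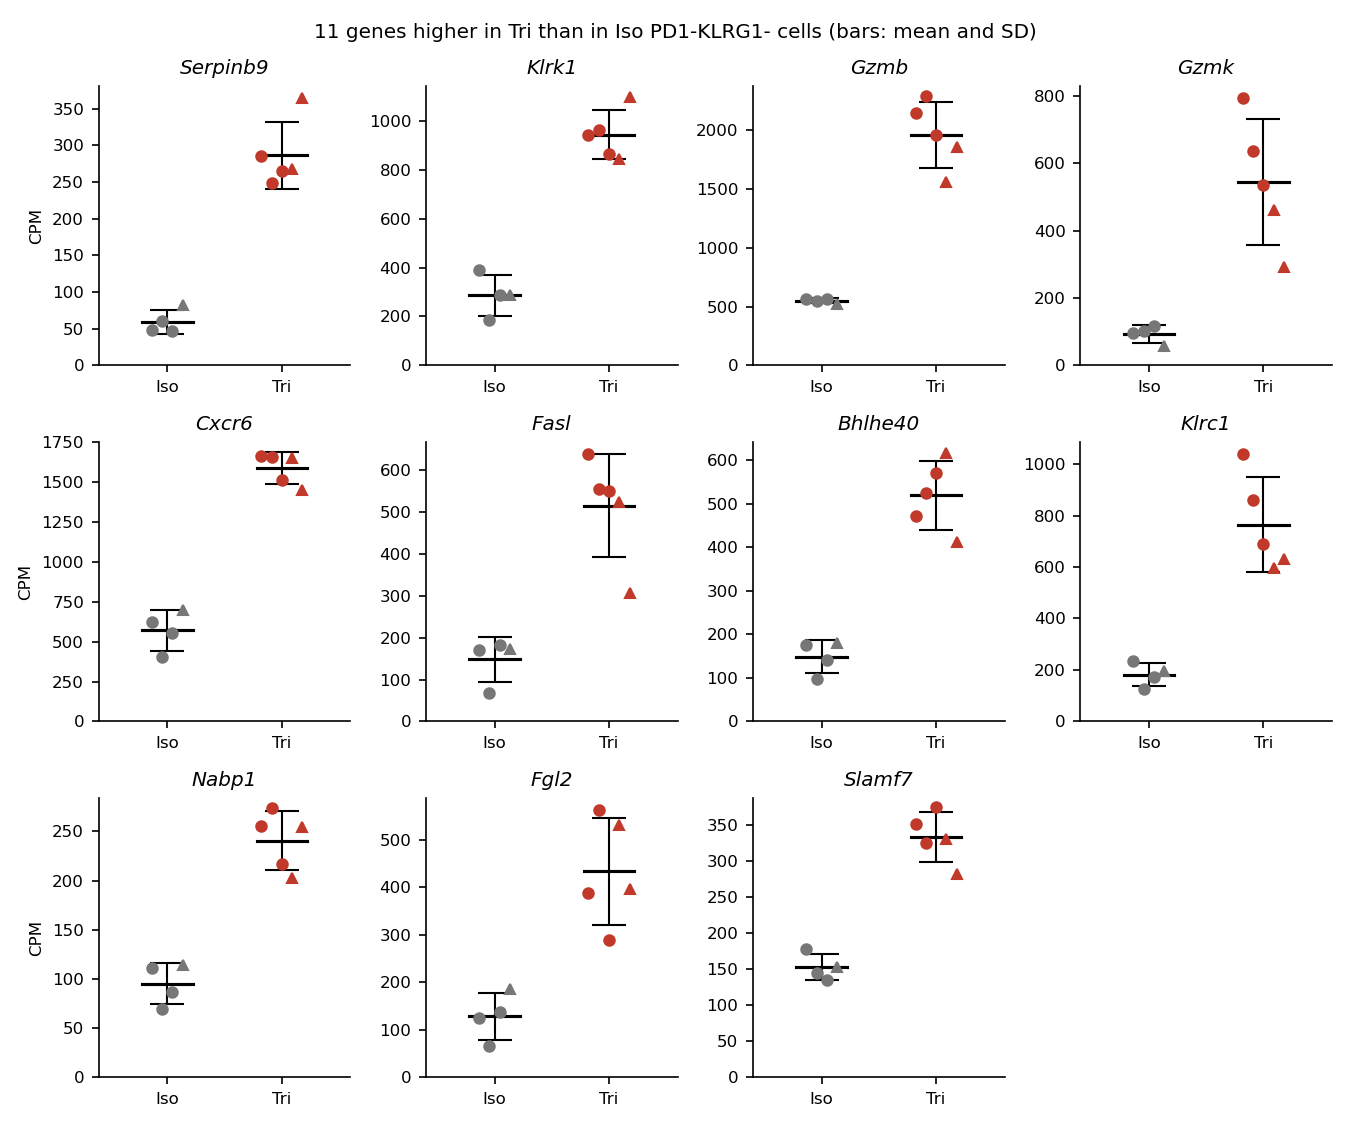
CPM of 11 of the 12 called higher genes of smallest p in the 4 Iso and 5 Tri PD1-KLRG1- libraries, each axis from 0. Circles are libraries without and triangles libraries with the RNA-number suffix in their description, and bars give the mean and SD. In all 11 panels the lowest Tri library lies above the highest Iso library.

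Receptors shared with NK cells were split. Klrk1 (chr6:129610323-129623864, minus strand) was at 388, 184, 289 and 288 CPM in the Iso libraries and at 943, 963, 864, 843 and 1096 CPM in the Tri libraries (1.67 ± 0.18, adjusted p = 3.25e-06). Klrc1, which encodes the inhibitory receptor NKG2A and lies in the same gene cluster (chr6:129666015-129678973, minus strand), was at 233, 126, 171 and 195 CPM in Iso and at 1040, 859, 690.2, 596 and 632 CPM in Tri (2.07 ± 0.29, adjusted p = 0.000253). Neither gene overlapped between the groups, and Iso replicate 2 was the lowest library for both. Klrc1 may share reads with its near-identical neighbours, so its value is uncertain. The whole list did not follow them: of 19 killer lectin-like receptors and adaptors, 3 were called higher (these and Klrg1), none lower, 7 lay above 0 and the median was -0.40. Tyrobp, the adaptor of activating NK receptors, was at 47.0 ± 21.4 CPM in Iso and 5.07 ± 4.47 CPM in Tri without overlap (-3.62 ± 1.29, adjusted p = 0.284). Slamf7, a receptor of the SLAM family, was at 178, 145, 135 and 153 CPM in Iso and at 351, 325, 375, 330.3 and 282 CPM in Tri (1.17 ± 0.21, adjusted p = 0.00608). It was the 1 member called among 16 costimulatory receptors, of which 11 lay above 0 (median 0.33).

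Inhibitory receptors gave no call among 15 tested, with 9 above 0 and a median of 0.62. Yet in 4 of them all Tri libraries lay above all Iso libraries, as in 2.41% of all genes. Tigit was at 26.9, 8.31, 19.1 and 11.4 CPM in Iso and at 52.0, 48.2, 60.5, 39.0 and 44.3 CPM in Tri (1.71 ± 0.56, adjusted p = 0.203). Havcr2, which encodes TIM-3, was at 18.5, 10.8, 15.6 and 21.2 CPM in Iso and at 86.3, 68.4, 100.3, 64.9 and 69.6 CPM in Tri (2.24 ± 0.77, adjusted p = 0.254). Both genes were low in every Iso library. Without the Iso PD1-KLRG1+ libraries 4 members were called higher, Havcr2 (adjusted p = 7.81e-06), Tigit (0.00268), Entpd1 (0.0191) and Laptm5 (0.0286). In a fit of the 9 libraries alone 1 was, Havcr2 (0.00562), where 0.575% of 12178 genes were called higher.

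Cxcr6 and Ccr2, chemokine receptors of inflamed tissue, rose. Cxcr6 (chr9:123806475-123811760, plus strand), a receptor of tissue-dwelling T cells, was at 626, 402, 555 and 699 CPM in the Iso libraries and at 1668, 1659, 1512, 1653 and 1453 CPM in the Tri libraries (1.46 ± 0.20, adjusted p = 0.000188). Ccr2, a receptor for monocyte-attracting chemokines, was at 77.0, 29.2, 36.4 and 127 CPM in Iso and at 708, 653, 464, 648 and 148 CPM in Tri (3.0 ± 0.61, adjusted p = 0.0118). Both genes were free of overlap, although Ccr2 came close in Tri replicate 5, and its call ended without Iso replicate 3 or Iso replicate 2 (0.0918 for the latter). Of 21 chemokine and egress receptors tested 12 lay above 0 (median 0.20), and none was called lower. Tri lay above Iso without overlap in 5 (2.41% of all genes) and below in 4 (4.33%). In the 9 libraries alone 4 were called higher and 2 lower (0.575% and 0.526% of 12178 genes). Without the Iso PD1-KLRG1+ libraries 4 were called higher and 1 lower (0.971% and 1.19% of 14008 genes). Ccr7, described below, was called lower in both fits. Itga4, the integrin alpha chain that binds VCAM-1, rose from 126 ± 32.1 to 271 ± 54.7 CPM (1.06 ± 0.26, adjusted p = 0.041, called in 1 of 9 refits without 1 library, up to 0.171 without Iso replicate 4), alone among 19 integrin and adhesion genes (12 above 0, median 0.38).

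Genes of the stem-like and memory state leaned the other way. Of 23 tested, 5 lay above 0 and the median was -0.69, and in 12 of them all Tri libraries lay below all Iso libraries, as in 4.33% of all genes. None was called. Ccr7, the receptor that guides T cells into lymph nodes, was at 563, 433, 403 and 489 CPM in the Iso libraries and at 68.7, 61.5, 122, 62.8 and 67.9 CPM in the Tri libraries (-2.58 ± 0.87, adjusted p = 0.239). No Tri library came near the Iso range. Ccr7 was called in the fit of the 9 libraries alone (adjusted p = 0.00067) and in the fit without the Iso PD1-KLRG1+ libraries (0.00196).

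In the fit of the 9 libraries alone, 7 of the 23 genes were called lower, against 0.526% of 12178 genes, and none higher. Beside Ccr7 they included Tcf7, the transcription factor TCF-1 (-1.40, adjusted p = 0.0276), Klf2, which drives the egress receptor S1pr1 (-1.64, 0.00701), Foxp1, a quiescence factor (-1.02, 0.0336), Dapl1 (-2.94, 0.0106) and Actn1 (-2.67, 0.0333). Tcf7 was at 626, 709.9, 534 and 830.4 CPM in Iso and at 230.4, 168, 239, 235 and 516 CPM in Tri. Tri replicate 5 lay closest to the Iso libraries. Without the Iso PD1-KLRG1+ libraries 3 members were called lower (Ccr7, Foxp1 and Actn1), where 1.19% of 14008 genes were, and 1 higher (Cd28, a costimulatory receptor, 0.89, adjusted p = 0.00959). These members were named after their values in the refits were seen. In bulk samples fewer cells of a type and less RNA per cell cannot be told apart.

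**Figure D3:**
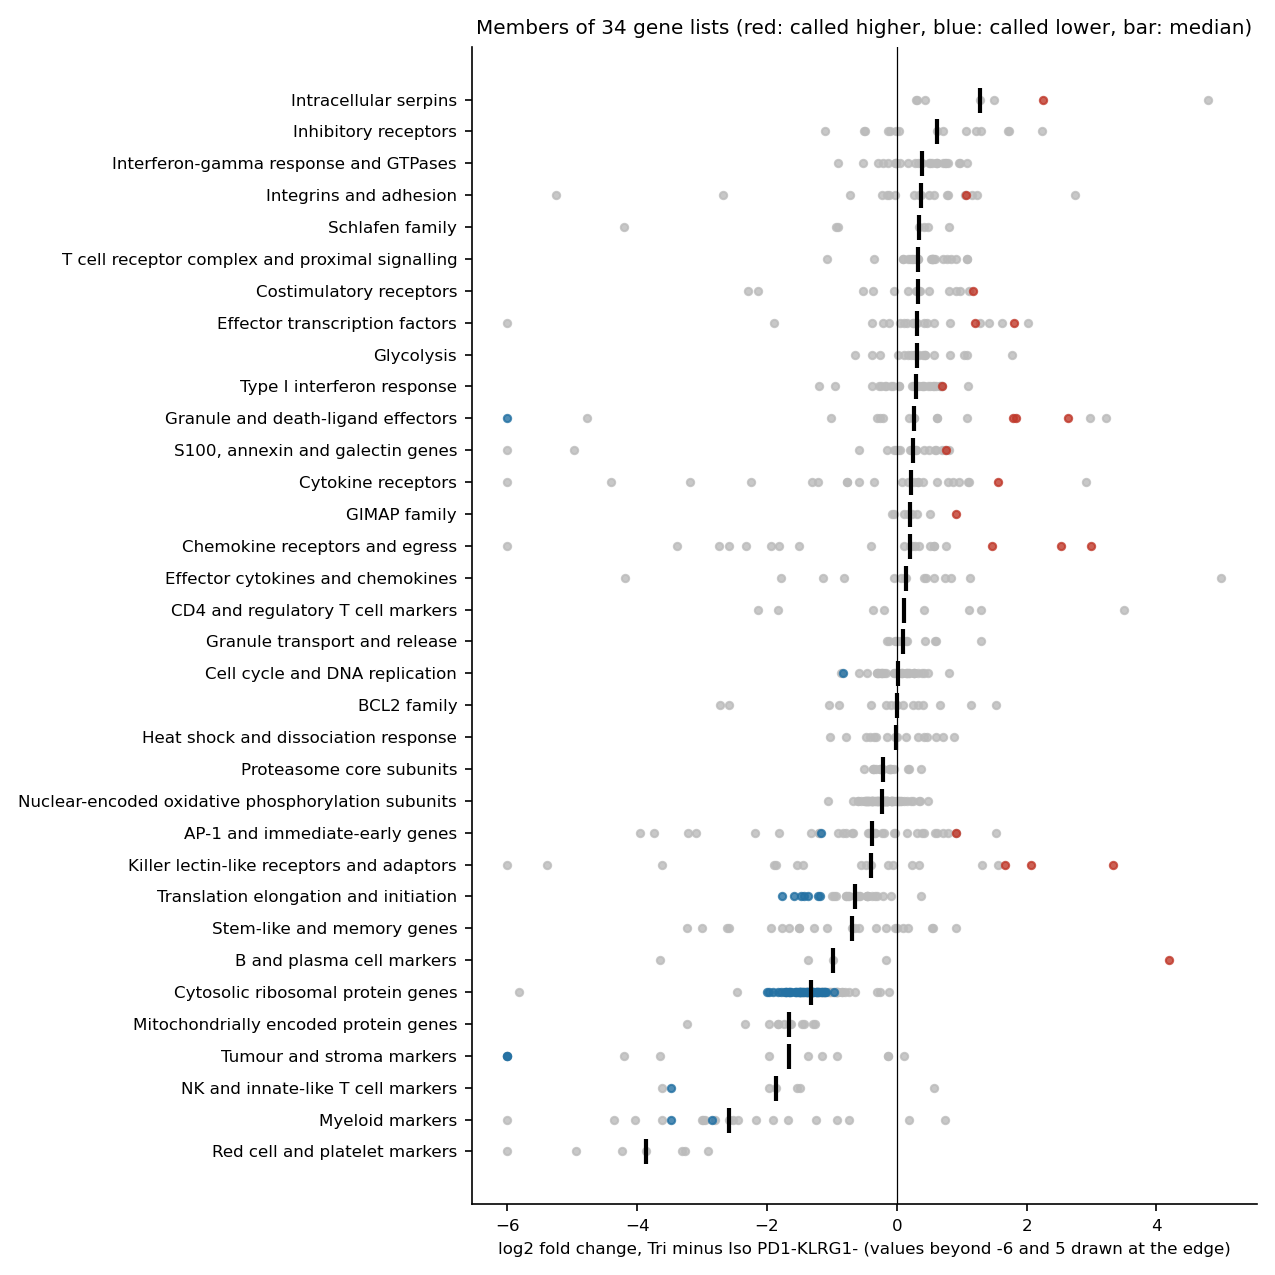
Log2 fold changes, Tri minus Iso PD1-KLRG1-, of the tested members of 34 gene lists, ordered by their median. Colours mark members called higher, called lower or neither, and values beyond -6 and 5 are drawn at the edge. The serpins have the highest median (1.29) and the red cell and platelet markers the lowest (-3.86).

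Among transcription factors, Bhlhe40, a basic helix-loop-helix factor of activated T cells, was at 174, 98.5, 141 and 180.1 CPM in Iso and at 472, 524, 570.5, 616 and 412 CPM in Tri (1.80 ± 0.25, adjusted p = 0.000208). Id2, an inhibitor of E proteins that favours effector cells, was at 783, 802, 1027 and 439.9 CPM in Iso and at 2153, 1665, 2011, 1489 and 1134 CPM in Tri (1.20 ± 0.24, adjusted p = 0.012). Neither overlapped, and the Id2 call ended without Iso replicate 2 (0.0584). They were the 2 called among 21 effector transcription factors, of which 16 lay above 0 (median 0.31). Of 31 type I interferon genes 22 lay above 0 (median 0.30), and none of 27 interferon-gamma response genes was called (19 above 0, median 0.39). Runx2os2, annotated as antisense to Runx2, had no count in Iso and 0.503, 5.24, 3.11, 4.94 and 5.55 CPM in Tri, at least 87.0-fold higher (adjusted p = 0.0278, called in 3 of 9 refits without 1 library, up to 0.118 without Iso replicate 2). Whether the counting used strand is not stated, so reads of the partner gene cannot be told apart.

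Junb, a subunit of the transcription factor AP-1, fell. It was at 849, 857, 1186 and 1172 CPM in the Iso libraries and at 432, 460.5, 621, 424 and 323 CPM in the Tri libraries (-1.16 ± 0.19, adjusted p = 0.00218). The highest Tri library stayed below the lowest Iso library, and the call held in all 9 refits without 1 library. Of 34 AP-1 and immediate-early genes, 11 lay above 0 and the median was -0.38. Junb was the member called lower, and Dusp5, a phosphatase that acts on ERK, the member called higher, from 86.1 ± 7.54 to 159 ± 11.3 CPM (0.91 ± 0.21, adjusted p = 0.0359, lost in each of the 9 refits, up to 0.164 without Iso replicate 2). Zfp36, which destabilises cytokine mRNAs, was at 232 ± 14.4 and 92.0 ± 23.9 CPM without overlap (-1.32 ± 0.36, adjusted p = 0.0954).

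Further higher genes encode signalling and surface proteins. Nabp1, a single-stranded DNA-binding protein, was at 111, 69.5, 87.0 and 114 CPM in Iso and at 255, 274, 217, 202 and 255 CPM in Tri (1.31 ± 0.21, adjusted p = 0.00144). Fgl2, a fibrinogen-like protein, was at 125, 65.3, 138 and 187 CPM in Iso and at 389, 563, 289, 531 and 397 CPM in Tri (1.72 ± 0.30, adjusted p = 0.00471). Neither overlapped. Sh2d2a, the T cell adaptor TSAd, rose by 1.17 ± 0.22 (adjusted p = 0.00635) and Lime1, an adaptor that binds Lck, by 0.98 ± 0.19 (0.00734), both called in all 9 refits without 1 library. Pik3ap1, an adaptor of PI3 kinase, rose by 2.59 ± 0.52 (0.0111), a call that ended without Iso replicate 3 or Iso replicate 2 (0.0715 for the latter). Il10ra, a chain of the interleukin-10 receptor, rose from 97.5 ± 35.4 to 284 ± 62.2 CPM (1.56 ± 0.32, adjusted p = 0.0134) and was the 1 called of 24 cytokine receptors (14 above 0, median 0.22). Its call ended without Iso replicate 1, 2 or 3 (up to 0.0773, without the last).

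The redox enzyme gene Glrx rose by 1.08 ± 0.22 (adjusted p = 0.0111), the small GTPase gene Gem by 1.30 ± 0.26 (0.0118) and Atp8b4, a P4-type ATPase, by 1.88 ± 0.40 (0.0174). Each call ended without Iso replicate 2 (0.0625, 0.0962 and 0.0962), that of Gem also without Iso replicate 3 or Tri replicate 2, and that of Atp8b4 also without Iso replicate 1 or 3 or Tri replicate 2. Anxa2, annexin A2, rose from 468 ± 28.4 to 777 ± 30.9 CPM (0.76 ± 0.17, adjusted p = 0.0278). Ms4a4b, a T cell membrane protein, rose from 2941 ± 159.9 to 4420 ± 630.4 CPM (0.61 ± 0.15, adjusted p = 0.0484), and Ly6a, or Sca-1, from 703 ± 159 to 1530 ± 338 CPM (1.17 ± 0.29, adjusted p = 0.0484). All 3 separated the groups without overlap, but the calls were near the threshold. That of Anxa2 held in 1 of 9 refits without 1 library (up to 0.145 without Iso replicate 2), and those of Ms4a4b (up to 0.162 without Iso replicate 2) and Ly6a (up to 0.149 without Iso replicate 4) in none.

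A further group held in at most 3 of 9 such refits. Nsmaf, an adaptor of a TNF receptor, rose by 1.04 ± 0.23 (adjusted p = 0.0278), Rsrp1 by 1.09 ± 0.26 (0.036) and Arsb, a lysosomal sulfatase, by 1.99 ± 0.48 (0.0429). The GTPase gene Gimap7 rose by 0.92 ± 0.21 (0.0317), F2r, the thrombin receptor, by 1.29 ± 0.31 (0.0429) and H2-Q10, a class Ib MHC gene whose reads near-identical genes may share, by 2.11 ± 0.49 (0.0354). All 6 were weakest without Iso replicate 2, where the adjusted p was 0.148 for Nsmaf, 0.226 for Rsrp1, 0.233 for Arsb, 0.162 for Gimap7, 0.238 for F2r and 0.205 for H2-Q10. A gene ID with no symbol in the name table rose from 45.9 to 174 CPM (1.90 ± 0.39, adjusted p = 0.0134, and 0.114 without Iso replicate 2, also lost without Tri replicate 2). Gimap7, F2r and H2-Q10 were among the 4 higher genes whose libraries overlapped.

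Igkc, the immunoglobulin kappa constant gene of B and plasma cells, was at 0.575, 7.62, 4.5 and 0.612 CPM in Iso and at 66.9, 39.8, 53.2, 41.2 and 72.7 CPM in Tri (4.20 ± 0.81, adjusted p = 0.00734, called in all 9 refits without 1 library). All Tri libraries held more than all Iso libraries. Of 12 B and plasma cell markers 5 passed the filter on low counts, while Ms4a1, Cd79a, Jchain and Mzb1 were among those that did not, and of the 5 Igkc alone lay above 0. The summed level of the 12 ran from 430.7 to 658.5 CPM in Iso and from 263.6 to 415.9 CPM in Tri, most of it Ighm (492 ± 92.8 and 249 ± 35.3 CPM).

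Promoters of the higher genes were searched on both strands for 5 motifs, in the 250 bases before the RefSeq start, which was found for 25 of the 37 genes. AP-1 (TGANTCA) matched in 7 (28%), against 4.05% of the 9854 tested genes with a promoter and 6.85% of all 27025 promoters. Runx (TGTGGT) matched in 8 (32%), against 11.3% and 14.2%. T-box (GGTGTGA) matched in 2 (8%) against 2.86% of tested genes, STAT (TTCNNNGAA) in 1 (4%) against 5.9%, and a 10-letter NF-kB motif in 1 (4%) against 1.25%. Gzmb and F2r held both an AP-1 and a Runx match. The shares describe letters in these windows, and no test was made of them. The AP-1 matches outside Gzmb are shown with their flanks, motif in capitals, because their share differed most from that of all tested genes as a ratio.
Fgl2 (chr5:21372640-21372672, plus strand): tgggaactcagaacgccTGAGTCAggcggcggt
Slamf7 (chr1:171649018-171649058, minus strand): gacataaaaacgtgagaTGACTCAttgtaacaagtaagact
Glrx (chr13:75839770-75839810, plus strand): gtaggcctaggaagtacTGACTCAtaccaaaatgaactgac
Atp8b4 (chr2:126491568-126491608, minus strand): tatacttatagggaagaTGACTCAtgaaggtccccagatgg
Anxa2 (chr9:69453571-69453611, plus strand): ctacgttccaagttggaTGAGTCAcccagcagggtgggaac
F2r (chr13:95618647-95618687, minus strand): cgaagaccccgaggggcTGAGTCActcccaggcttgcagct
The match of Fgl2 began 16 bases before the start, that of Atp8b4 38, of Slamf7 42, of Gzmb 58, of Anxa2 95, of Glrx 98 and of F2r 204.

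Lower genes were of another kind. Of the 76, 47 were cytosolic ribosomal protein genes, 7 belonged to the translation list and 22 to neither. All 88 ribosomal protein genes tested lay below 0 (median -1.32). Rps19, of the small subunit, was at 1936, 3355, 2443 and 964 CPM in the Iso libraries and at 938, 535, 888, 440.1 and 663 CPM in the Tri libraries (-1.49 ± 0.23, adjusted p = 0.000878). Rpl21, of the large subunit, was at 756, 1638, 1201 and 332 CPM in Iso and at 395, 196, 363, 142 and 273 CPM in Tri (-1.63 ± 0.28, adjusted p = 0.00363). Rpl13, also of the large subunit, was at 2832, 4357, 3397 and 1549 CPM in Iso and at 1573, 964, 1401, 807 and 1081 CPM in Tri (-1.29 ± 0.23, adjusted p = 0.00471). In all 3 genes Iso replicate 2 was highest, and Iso replicate 4 lay just above the Tri range in Rps19 and inside it in Rpl21 and Rpl13. All Tri libraries lay below all Iso libraries in 2 of the 47 genes, no more than the 4.33% of all genes. The higher genes were apart in 33 of 37, beside 2.41% of all genes with Tri above Iso. Both sets were called on these same libraries, so separation is not independent of the calls. Ribosomal protein genes have many near-identical pseudogene copies, so their counts are uncertain.

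Ribosomal protein genes held 6.34%, 11.7%, 8.39% and 3.0% of counts in the Iso libraries and 3.78%, 2.17%, 3.69%, 1.87% and 2.57% in the Tri libraries (means 7.35% ± 3.64, n = 4, and 2.82% ± 0.875, n = 5, exact permutation p = 0.0238, adjusted 0.0476). Iso replicate 4, which carries the name suffix, lay inside the Tri range. Among the libraries without the suffix, 3 against 3, the means were 8.80% and 3.21% (exact permutation p = 0.1, the smallest such groups allow). With 8 libraries the adjusted value missed 0.05 in 8 of 9 tests, all but that without Iso replicate 4 (up to 0.137). Part of this is the test itself, since fewer libraries raise the smallest p it allows. The gene calls depended on single libraries: 6 of the 47 remained without Iso replicate 2, 18 without Tri replicate 2, 24 without Iso replicate 3, 26 without Tri replicate 4 and 29 without Tri replicate 3. With a covariate for genes detected 6 remained, and with the 9 libraries alone 7. All 47 remained in DESeq2 and in the fit without the Iso PD1-KLRG1+ libraries, where 1.19% of 14008 genes were called lower. The median of the 47 lay between -1.65 and -1.12 in the refits without 1 library.

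Of 29 translation genes 7 were called lower, none higher, and 1 lay above 0 (median -0.64). Eef1a1, an elongation factor, was at 5291, 9485, 7126 and 2994 CPM in Iso and at 2710, 1738, 2666, 1484 and 2113 CPM in Tri without overlap (-1.43 ± 0.25, adjusted p = 0.00471). The others were Eef1g (-1.36), Eef1b2 (-1.76), the nucleolar gene Npm1 (-1.18), Tpt1 (-1.59), the ribosome-bound Rack1 (-1.47) and Pabpc1, the poly(A)-binding protein (-1.22). Without Iso replicate 2 the call of 1 of the 7 remained, without Iso replicate 3, Tri replicate 2 or Tri replicate 4 those of 3, and without Tri replicate 1 or 3 those of 4. In the fit of the 9 libraries alone 2 were called, Eef1a1 and Eef1g, and with a covariate for genes detected 1 was. Without the Iso PD1-KLRG1+ libraries 9 of the 29 were called lower, against 1.19% of 14008 genes.

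Some pseudogenes were called lower as well. Gm10275 was at 549, 1749, 1182 and 230 CPM in Iso and at 264, 121, 299, 91.4 and 141 CPM in Tri (-2.11 ± 0.36, adjusted p = 0.00363). Gm15500 was at 1113, 2864, 1729 and 559 CPM in Iso and at 552, 253, 638, 258 and 306 CPM in Tri (-1.71 ± 0.32, adjusted p = 0.00635). Iso replicate 2 was highest and Iso replicate 4 overlapped Tri in both. Gm15427 (-1.25 ± 0.28, adjusted p = 0.0278), Gm6472 (-2.19 ± 0.52, adjusted p = 0.036) and the coding model Gm2000 (-1.46 ± 0.30, adjusted p = 0.0134) were called lower too, calls that ended without Iso replicate 2 (0.205, 0.297 and 0.112) and without further libraries. Pseudogenes share reads with their parent genes, so these values are uncertain.

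Mitochondrially encoded transcripts were low in Tri without a call for a single gene. All 13 lay below 0 (median -1.66), and mt-Nd2, a subunit of respiratory complex I, was at 743 ± 472 CPM in Iso and 146 ± 63.0 CPM in Tri (-2.33 ± 0.61, adjusted p = 0.0687). Their share of counts was 1.81%, 3.02%, 3.62% and 1.37% in the Iso libraries and 1.07%, 0.566%, 1.06%, 0.416% and 0.986% in the Tri libraries (exact permutation p = 0.00794, the smallest that 5 against 4 allow, adjusted 0.0317). The groups did not overlap. With 8 libraries the adjusted value missed 0.05 in 6 of 9 tests, without Iso replicates 2 or 3 or Tri replicates 1, 3, 4 or 5 (up to 0.0762). Fewer libraries raise the smallest p the test allows, and the groups did not overlap in any of these tests. The misses therefore do not show dependence on 1 library. Without the Iso PD1-KLRG1+ libraries 9 of the 13 genes were called lower, against 1.19% of 14008 genes, and in the 9 libraries alone 2 were, against 0.526% of 12178. Nuclear genes of oxidative phosphorylation gave no call among 78 (13 above 0, median -0.22).

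Proliferation genes did not lean either way: 16 of 32 lay above 0 and the median was 0.02. The 1 called was Ccnd2, the gene of cyclin D2, at 922, 1045, 1060 and 786 CPM in Iso and 539, 357, 637, 432 and 612 CPM in Tri (-0.83 ± 0.18, adjusted p = 0.0266, held in 4 of 9 refits without 1 library, up to 0.0964 without Tri replicate 2). Tubb5, a beta-tubulin gene, was at 394, 819, 587 and 336 CPM in Iso and at 264, 193, 254, 133 and 172 CPM in Tri (-1.30 ± 0.25, adjusted p = 0.00766, and 0.0655 without Iso replicate 2). Both genes fell without overlap. So did Ftl1, the ferritin light chain (-0.76 ± 0.18, adjusted p = 0.0333, held in 2 of 9 refits, up to 0.171 without Iso replicate 4), and Gpx1, a glutathione peroxidase (-0.89 ± 0.21, adjusted p = 0.0354, held in 1, up to 0.149 without Iso replicate 2).

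**Figure D4:**
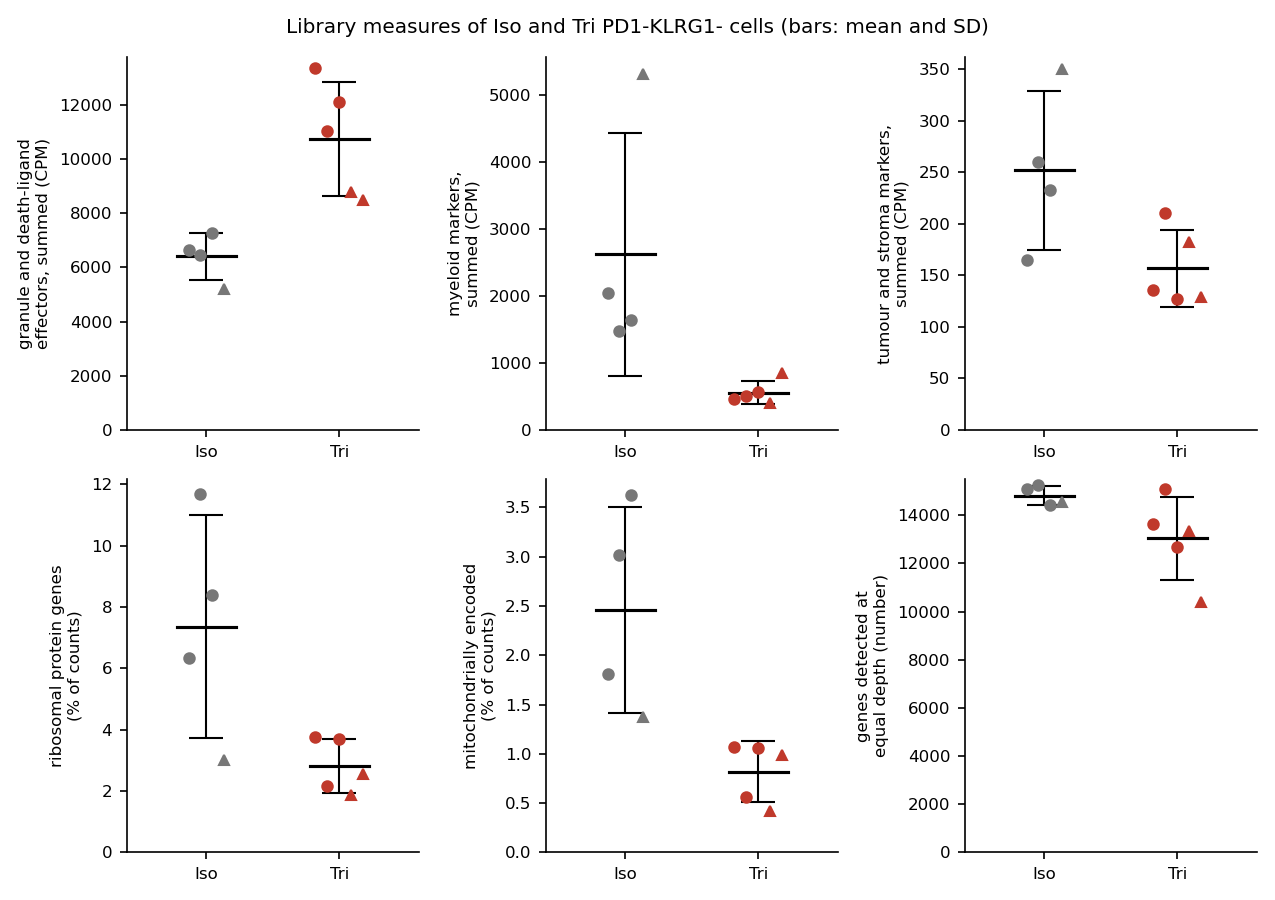
Library measures of the 4 Iso and 5 Tri PD1-KLRG1- libraries, with bars for the mean and SD and triangles for libraries with the RNA-number suffix. The groups do not overlap for summed effector genes (Tri above), summed myeloid markers and the mitochondrial share (Tri below), and overlap for the ribosomal share.

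Fcer1g and Cd74, genes of myeloid cells, fell. Fcer1g, the gamma chain through which Fc receptors signal, was at 137, 104, 99.0 and 156 CPM in the Iso libraries and at 12.6, 10.3, 7.90, 19.0 and 5.32 CPM in the Tri libraries (-3.48 ± 0.71, adjusted p = 0.0123, and 0.0534 without Tri replicate 2). Cd74, which chaperones MHC class II, was at 513, 377, 516 and 1115 CPM in Iso and at 55.7, 42.2, 103, 63.4 and 206 CPM in Tri (-2.85 ± 0.68, adjusted p = 0.0399, held in 1 of 9 refits without 1 library, up to 0.135 without Tri replicate 2). The groups were apart in both genes. These were the 2 called of 21 myeloid markers, of which 2 lay above 0 (median -2.59). In the 9 libraries alone 6 of 19 were called lower, against 0.526% of 12178 genes. Without the Iso PD1-KLRG1+ libraries 7 of 21 were, against 1.19% of 14008 genes. Both fits called the MHC class II genes H2-Aa, H2-Ab1 and H2-Eb1, named after their values in the refits were seen. The macrophage marker Adgre1 was at 61.1 CPM in Iso replicate 4, 0.895 CPM in Iso replicate 1 and 0 in the other 7 libraries. The summed myeloid level was 2048, 1471, 1646 and 5323 CPM in Iso and 462, 506, 570.2, 408 and 847 CPM in Tri (exact permutation p = 0.00794, adjusted 0.0317). The groups did not overlap, and Iso replicate 4 was far above the rest. With 8 libraries the adjusted value missed 0.05 in 6 of 9 tests, namely without Iso replicates 2 or 3 and without Tri replicates 1, 3, 4 or 5 (up to 0.0762). As for the mitochondrial share, the smallest p allowed is larger with fewer libraries, and none of these tests had overlapping groups.

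The matrix genes Fbln2 and Col1a1 fell to or near 0 in Tri. Fbln2, the matrix protein fibulin-2, was at 4.28, 14.5, 15.7 and 5.66 CPM in Iso and had no count in the 5 Tri libraries, at least 202-fold lower (adjusted p = 0.00734, held in all 9 refits). Col1a1, a collagen I chain, was at 15.9, 30.5, 3.87 and 10.6 CPM in Iso and at 0.397 CPM in Tri replicate 2, with no count in the other 4 Tri libraries (adjusted p = 0.0278, held in 4 of 9 refits, up to 0.112 without Iso replicate 2). They were the 2 called of 12 tumour and stroma markers tested, of which 1 lay above 0 (median -1.67). In the 9 libraries alone none of the 12 was called, and without the Iso PD1-KLRG1+ libraries 1 was. The summed level of the list overlapped, at 252 ± 76.9 CPM in Iso and 157 ± 37.5 CPM in Tri (exact permutation p = 0.0397, adjusted 0.0635, and 0.0476 without Iso replicate 1).

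Other lower genes had no count in Tri: Alox5ap, of leukotriene synthesis (at least 280-fold lower, adjusted p = 0.0359), Tlr2, a receptor for bacterial lipoproteins (at least 258-fold, 0.0484), Sh3tc1 (at least 142-fold, 0.0457), Tnfrsf11a, which encodes RANK (at least 97.9-fold, 0.0484), and Mcemp1 (at least 68.6-fold, 0.0359). Pirb, a paired immunoglobulin-like receptor of myeloid and B cells, was at 7.29, 5.87, 5.42 and 21.4 CPM in Iso and at 0.0727 CPM in Tri replicate 4, with no count in the other Tri libraries (adjusted p = 0.0278). Cep290, a centrosome protein, was at 4.85 ± 1.72 and 0.0435 ± 0.0649 CPM (adjusted p = 0.0325). The 7 calls held in at most 2 of 9 refits without 1 library, with an adjusted p of up to 0.108 without Iso replicate 2 for Alox5ap, 0.147 without Iso replicate 2 for Tlr2, 0.151 without Tri replicate 4 for Sh3tc1, 0.136 without Tri replicate 4 for Tnfrsf11a, 0.103 without Tri replicate 4 for Mcemp1, 0.0902 without Tri replicate 2 for Pirb and 0.112 without Iso replicate 2 for Cep290. At equal depth 14816.5 ± 401 genes were detected in Iso (SD, n = 4) and 13035.9 ± 1709 in Tri (n = 5). The groups overlapped (exact permutation p = 0.0714, adjusted 0.0952). How far this difference bears on counts of 0 in Tri, here and for Fbln2 and Col1a1, was not tested.

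NK and innate-like markers, of which 7 of 13 were tested, summed to 332.6 to 418.1 CPM in Iso and 149.8 to 252.4 CPM in Tri, and Fcer1g was the 1 called. Red cell and platelet markers ran from 18.48 to 1942 CPM in Iso and from 9.839 to 153.8 CPM in Tri with no call among 7. CD4 and regulatory T cell markers overlapped, at 102.8 to 238.1 CPM in Iso and 160.1 to 315.3 CPM in Tri, and Cd4 itself had no count in 7 of the 9 libraries. How far the myeloid and stromal transcripts take part in the lower genes was not tested.

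The evenness of T cell receptor beta variable segment use did not separate the groups, and the use of single segments was not compared. The segment with most counts took 12% ± 0.952 of such counts in Iso (n = 4) and 12.4% ± 1.43 in Tri (n = 5, exact permutation p = 0.643), and the effective number of segments was 16.7 ± 0.254 and 16.2 ± 0.798 (exact permutation p = 0.27, adjusted 0.308, and adjusted 0.0457 without Tri replicate 2). Genes of the T cell receptor complex and its proximal signalling lay above 0 in 23 of 25 (median 0.33) with none called. Cblb, a ubiquitin ligase that restrains this signalling, was at 69.4 ± 15.1 and 156 ± 44.0 CPM without overlap (1.08 ± 0.27, adjusted p = 0.0557).

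The same treatment contrast in the PD1-KLRG1+ gate, with 4 Tri and 4 Iso libraries, was set beside these values. There 6.08% of genes were called, 5.46% higher and 0.619% lower. Of the 37 genes higher in KLRG1- cells, 35 lay above 0 in KLRG1+ cells (median 0.62) and 10 were called higher there as well. The difference between the gates, tested as an interaction in the same fit (3.59% of all genes called, 0.185% higher), was called for 6 of the 37. They were Gzmb (difference 1.78, adjusted p = 0.000325), Klrk1 (1.05, 0.0161), Gzmk (1.78, 0.0222), Anxa2 (0.95, 0.0309), Fasl (1.32, 0.031) and Bhlhe40 (1.30, 0.0361). The treatment difference of each was larger in KLRG1- cells. Libraries of the 2 gates with equal treatment and number may come from 1 animal, which is not stated. The fit treated them as independent. Interaction calls among the 113 genes, 46 in this fit, were 5 in limma-voom with a block for such libraries. They were 0 in limma-voom with sample weights, 41 with a term for the replicate number and 2 with a covariate for genes detected. The Iso PD1-KLRG1+ libraries held 5832 to 9427 detected genes, fewer than the other groups, and 1 of them had 93198 counts.

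The levels of Gzmb show the order of the groups. It was at 3224 ± 964 CPM in the Iso and 3376 ± 538 CPM in the Tri PD1-KLRG1+ libraries (0.06, adjusted p = 0.947), at 1186 ± 325 CPM in Tri PD1+KLRG1- and at 2337 ± 414 CPM in Tri PD1+KLRG1+ libraries. The Tri PD1-KLRG1- mean of 1960 CPM lay between the last 2, and the Iso PD1-KLRG1- libraries were lowest. Serpinb9 and Cxcr6 rose in KLRG1+ cells as well (1.32 and 1.06, adjusted p = 0.000957 and 0.00191), and their difference between gates was not called (adjusted p = 0.101 and 0.518). Cxcr6 was highest in the Tri PD1+KLRG1- libraries, at 2430 ± 509.7 CPM. Junb fell in both gates (-0.91 in KLRG1+, adjusted p = 0.00756).

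Among lower genes the interaction, called in this direction for 3.41% of all genes, was called for 32 of the 47 ribosomal protein genes, whose median in KLRG1+ cells was 0.17 (range -0.38 to 0.68), and for 4 of the 7 translation genes. Rps19 was at 702 ± 68.6 CPM in Iso and 666 ± 279 CPM in Tri PD1-KLRG1+ libraries, and at 749 ± 226 and 779 ± 189.7 CPM in the Tri PD1+KLRG1- and PD1+KLRG1+ libraries. The Iso PD1-KLRG1- libraries, at 2174 ± 998 CPM, were the high group. Of the 22 other lower genes 4 differed between gates, Gm10275 (-2.54, adjusted p = 0.00712), Gm15500 (-2.04, 0.0121), Pirb (0.0239) and Gpx1 (-1.31, 0.0161). Fcer1g and Cd74 fell in both gates (-3.54 and -4.15 in KLRG1+, adjusted p = 0.00825 and 0.00261).

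**Figure D5:**
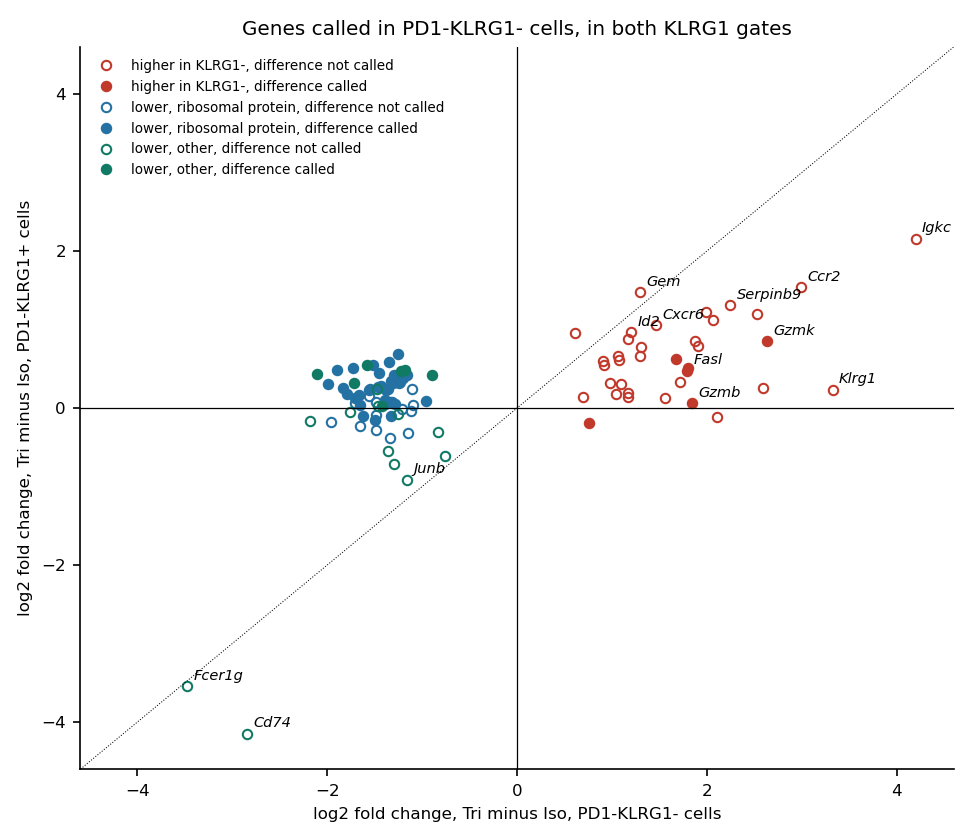
Log2 fold change, Tri minus Iso, in PD1-KLRG1- (x axis) and PD1-KLRG1+ cells (y axis) of 102 genes called in the former, without 11 genes beyond 6. Filled points differ between gates by the interaction test, and the dotted line marks equal values. Ribosomal protein genes lie near 0 on the y axis (median 0.17), and 35 of the 37 higher genes lie above 0 there.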

How the data were processed

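The authors deposited 1 table of raw counts per gene for 27 libraries, whole numbers that are not normalized. Rows are Ensembl gene IDs, and all 27 sample columns were matched to samples through the labels. The submitters' processing notes name DESeq2 1.26.0 without a role; aligner, counter and genome build: not given in the sources used here. GENCODE M21 names matched 47224 of 47729 IDs.

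Counts were fitted in edgeR 4.0.16 (R 4.3.3) with TMM scaling, filterByExpr at a minimum count of 10 (14059 genes kept), the robust quasi-likelihood F test, all 27 libraries, a mean per group and a term for the RNA-number suffix that Iso replicate 4 and Tri replicates 4 and 5 carry. P-values were Benjamini-Hochberg adjusted over all genes and called under 0.05. The SE is the log2 fold change over the square root of F. Library measures were compared by 2-sided exact permutation. On simulated counts of 13251 genes, 3% of 2-fold and 27% of 4-fold changes (100 each) were recovered and 1 unchanged gene was called, so genes not called may still differ.

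The members and lists were chosen with earlier results of these data known. Named were the sort genes and the markers Gzmb, Klrk1, Serpinb9 and Cxcr6, the 12 higher genes and 10 lower non-translation genes of smallest p and 3 ribosomal protein genes with every value, all other called non-translation genes, and up to 3 members of smallest p per list; others are said to be chosen after their values were seen. A few genes these rules name are not reported here, and counts and sums over lists or all genes still include them. Alternatives covered scaling, filters, terms, DESeq2 1.42.0, limma 3.58.1 and libraries left out. Figures used matplotlib 3.10.9.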

Additional observations from a re-analysis of the deposited data

Results flagged for a closer look

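Of 154 groups of 4 or 5 libraries looked at (69 genes and 8 library measures), 8 held a library far from the others, and chance alone flags about 1 in 20 groups. Iso replicate 4 was far above the other Iso libraries in summed myeloid markers (5323 CPM), in Atp8b4 (197.2 CPM), in Pirb (21.45 CPM) and in Ptprc (2316 CPM). Iso replicate 2 was far below them in Fasl (67.94 CPM) and in a gene ID without a symbol (23.85 CPM). Col1a1 at 0.3972 CPM in Tri replicate 2 and Pirb at 0.07271 CPM in Tri replicate 4 were the only counts of those genes in Tri.

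The interaction test called 15 named genes whose treatment difference was not the same in the 2 KLRG1 gates. As log2 fold change in KLRG1- minus that in KLRG1+ cells, the difference was 1.05 for Klrk1, 1.78 for Gzmb, 1.78 for Gzmk, 1.32 for Fasl, 1.30 for Bhlhe40 and 0.95 for Anxa2. It was below 0 for the ribosomal genes Rps19 (-1.34), Rpl21 (-1.52) and Rpl13 (-1.35), for Eef1a1 (-1.45) and Npm1 (-1.67), for the pseudogenes Gm10275 (-2.54) and Gm15500 (-2.04), for Gpx1 (-1.31) and for Pirb (-10.92, a fitted value from libraries at or near 0).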

How the results depend on the processing

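The 37 higher and 76 lower calls became 78 and 173 with no count filter and 123 and 250 with DESeq2. Limma-voom with a block for libraries of equal treatment and replicate number gave 68 and 218. Whether such a number is an animal is not stated. Limma-voom with sample weights gave 364 and 734. The calls were 136 and 166 without the 4 Iso PD1-KLRG1+ libraries, and 87 and 130 without 3 libraries that stand apart. The 9 libraries alone gave 70 higher, genes of at least 50 CPM 119 lower, no suffix term 42 lower, libraries without the suffix 34 lower and a covariate for genes detected 13 lower. Libraries with the suffix alone set only Iso replicate 4 against Tri replicates 4 and 5, too few for calls. There all 37 higher genes lay above 0 (median 1.31), and the called ribosomal protein genes had a median of -0.57. Leaving out 1 library gave 15 to 43 higher and 13 to 111 lower. Interaction calls among the called genes, 46, became 16 at 50 CPM and 5 in limma-voom with the block for equal treatment and number. They became 0 with sample weights (1235 at an unadjusted p under 0.05 in limma), 2 with the covariate and 21 to 60 without 1 library. In the fit of libraries with the suffix alone 46 of the 47 called ribosomal protein genes lay below 0, and Gzme, with no count there, was at 0.

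Of 65 called genes named, 23 were called in all 9 refits without 1 library and 41 were lost without Iso replicate 2. The replicate block gave 37 higher, 77 lower and 41 interaction calls. Same-numbered Iso and Tri libraries of this gate shared little deviation from their group means (r = 0.024, -0.088, 0.086 and 0.094). The 2 of 4 numbers that correlated best with themselves were 1 and 3. So few pairs cannot settle whether numbers pair Iso with Tri libraries, and pairing across gates was not looked at.

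Without the suffix libraries, where no p can go below 0.1, Tri minus Iso was -5.588 percentage points for the ribosomal share, -1.918 for the mitochondrial share, -1209 CPM for myeloid markers and 5363 CPM for granule effectors. Over all 9 libraries on log2 values the ribosomal share differed by -1.279 (adjusted p = 0.0635, exact permutation). Leaving out 1 library gave -5.986 to -3.096, -1.997 to -1.246, -2447 to -1163 and 3697 to 4919 for these, -2294 to -1125 genes detected, -124 to -62.12 CPM of stromal markers and -0.7522 to -0.2031 effective beta segments. With 4 or 5 libraries a group, small changes and low genes were at the limit of detection.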
